A study of Mus musculus with 9 samples.

Results

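The genes described here carry glucose into the cell, break it down to lactate, export the acid that results, or belong to the cell's response to low oxygen. They are 36 mouse genes given by symbol: glucose transporters, the enzymes of glycolysis, lactate and pyruvate genes, fructose bisphosphatases, carbonic anhydrases, HIF subunits with their prolyl hydroxylases, and a few hypoxia response genes. The members were listed by function and not by a value of the table, though with earlier results of these data known. All 36 symbols were found, as 37 identifiers among the 54532 genes of the deposited table, since Aldoa stands there under a pair of identifiers. All 37 passed the filter on low values (a mean of at least 10 normalized counts over the 9 libraries), as did 17764 genes in all.

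The study asked which genes distinguish cells of the developing knee that carry Creb5, a transcription factor of the forming joint, from cells that carry Sox9, a transcription factor of cartilage. All 9 libraries came from mouse embryos at stage E14.5, in days of gestation, with the genotype Creb53XHA-P2A-tdTomato/+; Sox9iresEGFP/+, so each group carried 1 tagged and 1 untagged allele of both genes. The red protein tdTomato is made from the Creb5 locus and EGFP from the Sox9 locus. Knees were dissected under fluorescence, dissociated with collagenase and sorted. By the names in the labels, GFP cells had the Sox9 reporter without the Creb5 reporter, RFP cells had the Creb5 reporter without the Sox9 reporter, and GFP&RFP cells had both, with 3 bulk libraries of each. The libraries of a population came from 3 separate litters, numbered 1, 2 and 5 in the labels. Each litter was collected on its own date, so that litter and date cannot be told apart. By their name, the deposited counts leave out the litters numbered between 2 and 5. The gates define the populations by 2 reporters, and each sorted population can hold more than 1 cell type.

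Glycolysis splits glucose into pyruvate and yields ATP without oxygen. Lactate dehydrogenase then turns pyruvate into lactate, and monocarboxylate transporters carry lactate and a proton out of the cell. Embryonic cartilage has no blood vessels of its own, and growth plate chondrocytes are known for low oxygen, for high glycolytic activity and for a need for the hypoxia inducible factor HIF-1. HIF-1 is a pair of HIF-1 alpha (Hif1a) and ARNT. Prolyl hydroxylases (the Egln genes) mark the alpha subunit for breakdown when oxygen is present, so its activity is set mainly on the protein, which RNA libraries do not measure. It binds short DNA elements near genes for glucose uptake, glycolysis, acid handling and mitophagy.

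Libraries held between 25199258 and 47079305 reads. The chondrocyte list (10 genes, among them Col2a1, Acan and Matn1) summed to 1411300 to 1948600 normalized counts in GFP cells, 279890 to 792820 in GFP&RFP cells and 7560 to 15403 in RFP cells. All 10 of its genes were lower in RFP than in GFP cells. Markers of skeletal muscle (13 genes) summed to 810 to 2227, 1104 to 3490 and 9302 to 34594 normalized counts in GFP, GFP&RFP and RFP cells, with 11 genes higher in RFP than in GFP cells. Endothelial markers (9 genes) summed to 475 to 1319, 953 to 4863 and 4559 to 5657 in the same order, and blood and immune markers (10 genes) to 166 to 750, 2277 to 14383 and 1247 to 3865. Erythroid genes (9) summed to 5681 to 38288, 9715 to 77684 and 41070 to 134430, and dissociation stress genes overlapped between all populations. No marker was at 0 in a whole population except Fcgr1 in GFP cells. The chondrocyte list thus ran in the same order of populations as most glycolytic genes below, and the muscle list in the opposite order. Tendon markers (5 genes) also ran in the opposite order without overlap, with sums of 2236 to 3193, 8854 to 16787 and 19458 to 22979 in GFP, GFP&RFP and RFP cells, and all 5 were higher in RFP than in GFP cells. Pericyte and smooth muscle markers (8 genes) overlapped in their sums (14813 to 17849, 9041 to 18849 and 12150.0 to 17760.0), though 7 of the 8 were higher and 1 lower in RFP than in GFP cells. Schwann and neuronal markers (8 genes) summed to 1528 to 4479, 2948 to 4435 and 4878 to 6042, and epidermal markers (7 genes) overlapped. For all of these lists, their part in the results below was not tested. In such bulk libraries, fewer cells of a type and less RNA per cell cannot be told apart. The GFP library of litter 5 stood above the other 8 libraries for 16 of the 37 member identifiers and below them for 6. The share of all genes with such a position was not computed. Over genes with at least 10 reads in a pair of libraries, it also stood apart from the GFP libraries of litters 1 and 2. The chi-square per degree of freedom was 338.8 and 309.4 against them, and 75.2 between them.

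Most glycolytic genes were lower in RFP cells than in GFP cells, with log2 fold changes down to -4.79 ± 0.41 for Aldoc. Among members that are not enzymes of glycolysis, it was -3.86 ± 0.50 for Car9 and -3.85 ± 0.59 for Fbp1. It was -3.05 ± 0.25 for Slc16a3 and -2.72 ± 0.27 for the mitophagy gene Bnip3. Of the 37 identifiers, 21 were lower and 2 were higher (Slc2a3 and Ndrg1), while 14 did not pass the test. Among all 17764 genes tested, 8.48% were called lower and 11.8% higher, 20.3% in all. The median log2 fold change of the members was -1.04, against 0.05 over all genes. For 23 members every RFP library lay below every GFP library, and for 2 it lay above (18.5% and 20.9% of all genes). In plain shares, the 16 glycolytic enzyme genes including both lactate dehydrogenases took 1.52%, 1.56% and 2.01% of all normalized counts in GFP cells of litters 1, 2 and 5. They took 1.46%, 1.04% and 1.31% in GFP&RFP cells, and 0.712%, 0.855% and 0.777% in RFP cells. The 3 populations did not overlap, with GFP cells highest and RFP cells lowest, although 1.46% and 1.52% are close.

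GFP&RFP cells lay between the other populations for most members. The mean of 22 identifiers was highest in GFP and lowest in RFP cells, with GFP&RFP cells in the middle. For 6 (Fbp1, Fbp2, Car9, Hif1a, Egln1 and the second Aldoa identifier) the mean was highest in GFP&RFP and lowest in RFP cells. For 5 (Slc2a3, Epas1, Hif3a, Adm and Ndrg1) it was highest in RFP and lowest in GFP cells. Hk1, Car12 and Egln3 were highest in GFP&RFP and lowest in GFP cells, and Pfkm was highest in RFP and lowest in GFP&RFP cells. This order of means is a description, and many neighbours in it did not differ beyond their spread. The share of all genes in each order was not computed, so these counts do not set the members apart from other genes.

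Each of the 3 comparisons shares a population with each other one, so their counts are not independent. Against GFP cells, GFP&RFP cells had 4 members lower (Slc2a1, Aldoc, Slc16a3 and Bnip3) and 2 higher (Fbp2 and Car12), beside 3.02% and 5.27% of all genes (8.29% in all). All GFP&RFP libraries lay below all GFP libraries for 12 members and above them for 2, beside 13.8% and 14.3% of all genes. The members' median log2 fold change was -0.27, against 0.04 over all genes. Against RFP cells, GFP&RFP cells had 8 members higher (Slc2a1, Pfkl, Aldoc, Slc16a3, Fbp1, Fbp2, Car9 and Bnip3), beside 1.8% of all genes (2.85% in either direction), and the members' median log2 fold change was 0.65, against -0.01. No member was called lower by limma (0, beside 1.05% of all genes), 1 was lower at an unadjusted p under 0.05, and edgeR and DESeq2 called 0. For 19 members all GFP&RFP libraries lay above all RFP libraries, beside 11.2% of all genes, and for 0 members they lay below, beside 12.6%. The counts moved with single libraries, as did those of all genes (1472 against GFP and 506 against RFP cells with every library kept). Against GFP cells 1 member and 855 of all genes were called without the GFP&RFP library of litter 1. Without that of litter 2 there were 3 members and 637 genes. Against RFP cells 15 members and 1050 genes were called without the GFP library of litter 5, which enters this comparison through the shared spread alone. Without the GFP&RFP library of litter 1 or 5 or the RFP library of litter 5, there were 5 members each time, beside 217, 223 and 236 genes.

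**Figure D1:**
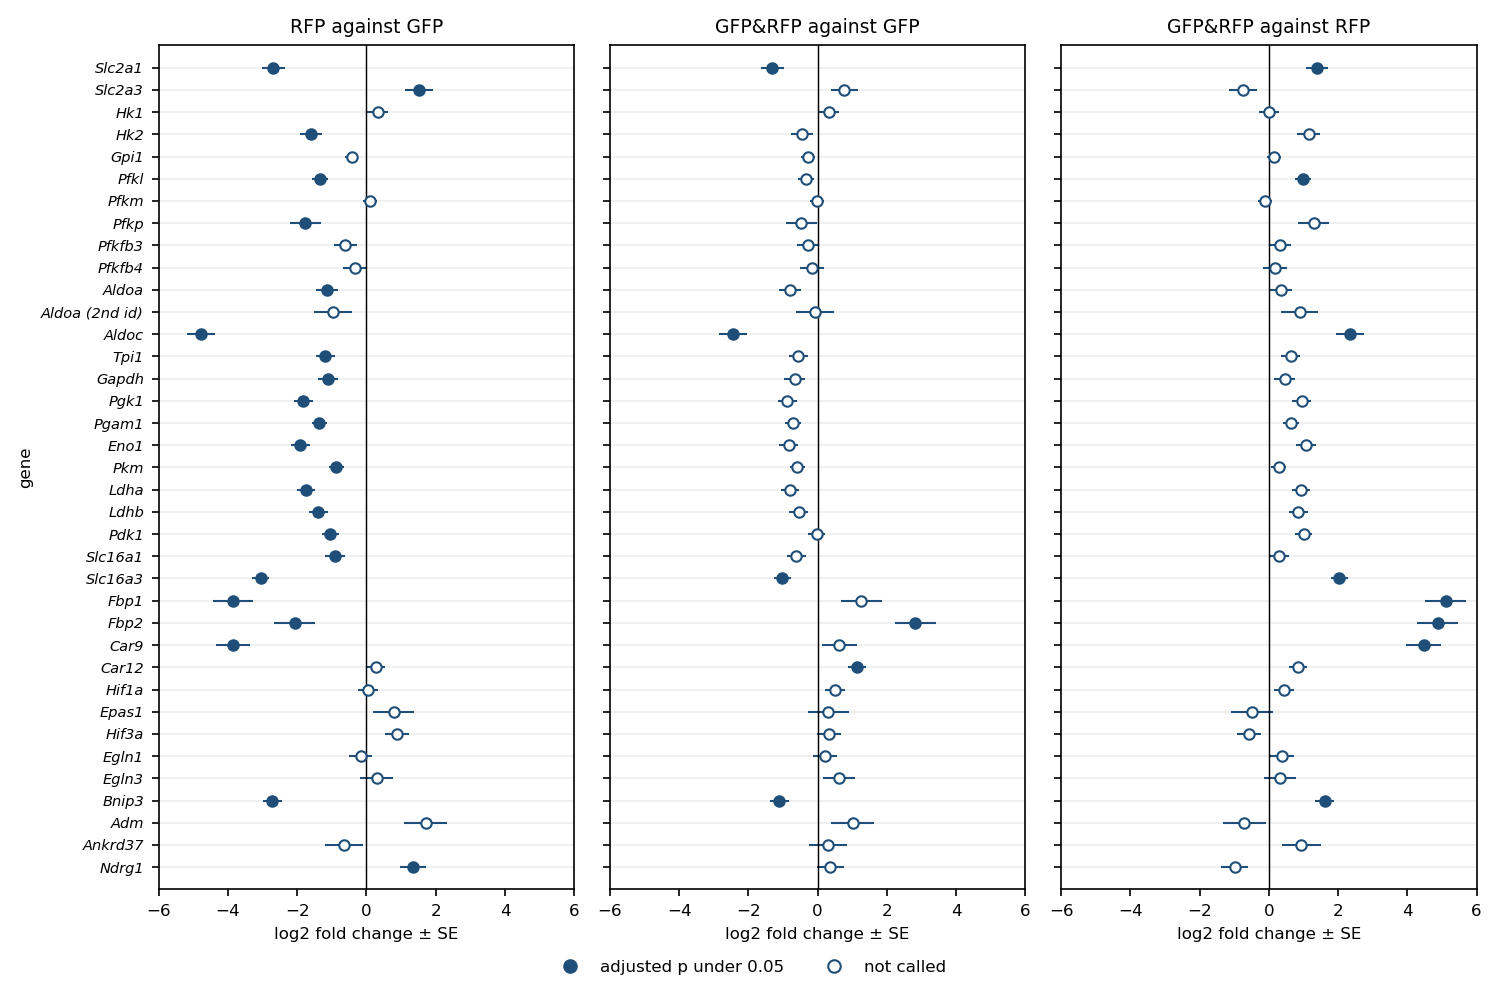
Log2 fold change with its standard error for each of the 37 member identifiers (rows, by role) in the 3 comparisons (panels), from limma on log2(normalized count + 1). Filled points passed an adjusted p of 0.05: 23 in RFP against GFP cells, 6 in GFP&RFP against GFP cells and 8 in GFP&RFP against RFP cells. Most filled points of the first panel lie left of 0, and those of the last panel lie right of it.

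HIF binds the core letters ACGTG or GCGTG, which read CACGT or CACGC on the other strand. Promoter windows of 300 bases (250 before to 50 after the RefSeq start, GRCm38.p6) were given for 33 of the 36 members; Slc2a3, Epas1 and Ndrg1 were not analysed here. Taking the first listed window of each gene, 26 of 33 members (78.8%) held at least 1 of these letter runs, against 11835 of 27018 genes (43.8%). Over all 46 windows listed for the members, 29 of the 33 members had a run in at least 1. Counted by window and not by gene, 14379 of all 32841 windows of that length held one (43.8%). These last counts are of unlike units and cannot be set side by side. First windows held a median of 18 CpG in the members, against 7 over all genes, and every one of these letter runs holds a CpG. Among members lower in RFP cells 17 of 21 first windows held a run (81%), and among members not called 9 of 12 did (75%). The 5 windows below belong to the members with a run that had the smallest adjusted p in RFP against GFP cells, and are shown so that the letters can be read beside their values. Each is written 5′ to 3′ on the strand of its gene, with the matching letters in capitals. They lie at chr11:120948817-120949116 (plus strand) for Slc16a3, chr11:78322823-78323122 (plus strand) for Aldoc, chr7:138909457-138909756 (minus strand) for Bnip3, chr4:119108495-119108794 (plus strand) for Slc2a1 and chr4:43506776-43507075 (plus strand) for Car9.
Slc16a3: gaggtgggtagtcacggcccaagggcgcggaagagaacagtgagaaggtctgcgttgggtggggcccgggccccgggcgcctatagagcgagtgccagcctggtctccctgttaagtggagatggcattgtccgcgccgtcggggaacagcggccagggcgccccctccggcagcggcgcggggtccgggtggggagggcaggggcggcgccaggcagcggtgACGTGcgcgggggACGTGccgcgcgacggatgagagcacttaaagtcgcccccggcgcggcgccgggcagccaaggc
Aldoc: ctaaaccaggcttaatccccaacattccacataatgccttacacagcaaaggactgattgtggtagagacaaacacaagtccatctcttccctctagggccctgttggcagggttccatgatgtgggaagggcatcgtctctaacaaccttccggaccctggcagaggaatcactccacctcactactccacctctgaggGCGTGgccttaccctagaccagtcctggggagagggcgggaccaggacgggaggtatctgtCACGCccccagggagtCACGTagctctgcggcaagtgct
Bnip3: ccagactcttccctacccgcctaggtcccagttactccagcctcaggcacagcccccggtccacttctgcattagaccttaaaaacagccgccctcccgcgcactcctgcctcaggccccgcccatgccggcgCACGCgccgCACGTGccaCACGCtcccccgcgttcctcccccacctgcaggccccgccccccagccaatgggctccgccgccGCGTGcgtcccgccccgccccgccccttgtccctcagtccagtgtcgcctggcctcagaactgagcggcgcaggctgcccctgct
Slc2a1: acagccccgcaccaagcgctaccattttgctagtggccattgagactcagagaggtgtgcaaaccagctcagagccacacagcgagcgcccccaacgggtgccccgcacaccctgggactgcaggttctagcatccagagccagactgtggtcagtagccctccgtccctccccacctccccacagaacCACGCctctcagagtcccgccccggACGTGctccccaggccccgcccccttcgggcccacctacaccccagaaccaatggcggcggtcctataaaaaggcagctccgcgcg
Car9: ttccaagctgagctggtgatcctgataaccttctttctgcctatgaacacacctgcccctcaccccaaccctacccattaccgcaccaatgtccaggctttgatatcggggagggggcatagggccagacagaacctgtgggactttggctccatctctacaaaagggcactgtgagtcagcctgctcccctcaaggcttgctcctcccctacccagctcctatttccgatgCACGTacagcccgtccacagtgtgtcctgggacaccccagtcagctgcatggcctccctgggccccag

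The Aldoc window holds 3 runs and the windows of Slc16a3 and Slc2a1 hold 2 each. Bnip3 has 5, where CACGTG counts on both strands and overlaps itself, and Car9 has 1. A letter match is a description and not a binding site.

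The 2 glucose transporters went opposite ways. Slc2a1 encodes GLUT1, the widespread basal glucose transporter and a HIF target (chr4:119108711-119137983 on GRCm38, plus strand). Slc2a1 had 15148, 14345 and 22939 normalized counts in GFP cells of litters 1, 2 and 5, 5805, 4774 and 11941 in GFP&RFP cells and 2387, 2461 and 3157 in RFP cells. The 3 populations did not overlap, with GFP cells highest and RFP cells lowest. Its log2 fold change was -2.69 ± 0.33, adjusted p = 0.000256 in RFP against GFP cells, -1.30 ± 0.33, adjusted p = 0.0327 in GFP&RFP against GFP cells, and 1.39 ± 0.33, adjusted p = 0.0475 in GFP&RFP against RFP cells. The first call held under all 20 alternatives. The GFP&RFP against GFP call was lost without the GFP library of litter 5 (adjusted p = 0.0712), without the GFP&RFP library of litter 1 or 2 (adjusted p = 0.115 and 0.132), without the RFP library of litter 1 or 2 (adjusted p = 0.0536 and 0.0522) and under 5 other alternatives (adjusted p = 0.0518 to 0.0888). The GFP&RFP against RFP call was lost without the GFP library of litter 1 or 2 (adjusted p = 0.0568 and 0.0547), without the GFP&RFP library of litter 1 or 5 (adjusted p = 0.106 and 0.134), without the RFP library of litter 1, 2 or 5 (adjusted p = 0.163, 0.181 and 0.109) and under 2 other alternatives (adjusted p = 0.0514 to 0.069).

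Slc2a3 encodes GLUT3, a transporter with high affinity for glucose that is best known from neurons. Slc2a3 had 516, 442 and 223 normalized counts in GFP cells, 484, 544 and 962 in GFP&RFP cells and 1289.6, 703 and 1324 in RFP cells. Here RFP cells had the highest mean and did not overlap GFP cells, though they overlapped GFP&RFP cells. Slc2a3 rose in RFP against GFP cells (log2 fold change 1.52 ± 0.40, adjusted p = 0.0207), a call that did not hold without the RFP library of litter 1 or 5 (adjusted p = 0.0861 and 0.088). Its differences between GFP&RFP and GFP cells (log2 fold change 0.77 ± 0.40, adjusted p = 0.257) and between GFP&RFP and RFP cells (log2 fold change -0.75 ± 0.40, adjusted p = 0.501) did not pass.

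Hexokinases trap glucose in the cell as glucose 6-phosphate. Hk2, the hexokinase that HIF and insulin induce, had 1687, 1763 and 1716 normalized counts in GFP cells, 1373, 949 and 1551 in GFP&RFP cells and 478, 955 and 403 in RFP cells. It was lower in RFP than in GFP cells (log2 fold change -1.60 ± 0.32, adjusted p = 0.00553), with no overlap. The difference between GFP&RFP and RFP cells (log2 fold change 1.15 ± 0.32, adjusted p = 0.0967) passed without the RFP library of litter 2 (log2 1.52, adjusted p = 0.0301) and in DESeq2 (adjusted p = 0.0379). Hk1 is the basal hexokinase. Hk1 had 2164, 2298 and 1072 normalized counts in GFP cells, 2385, 1809 and 2476 in GFP&RFP cells and 2284, 1943 and 2346 in RFP cells. Its populations overlapped, and the GFP library of litter 5 was the lowest of all (log2 fold change 0.32 ± 0.29, adjusted p = 0.461 in RFP against GFP cells). Gpi1, the isomerase of the next step, did not pass (log2 fold change -0.43 ± 0.20, adjusted p = 0.154), although its RFP values (6926, 8628 and 7068) all lay below its GFP values (8701, 9525 and 12490.4).

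Phosphofructokinase commits sugar to glycolysis, and its 3 subunit genes behaved unequally. Pfkl, the liver type subunit, had 18151, 19282 and 13811 normalized counts in GFP cells, 16539, 9818 and 14695 in GFP&RFP cells and 6632, 7258 and 6321 in RFP cells. RFP cells lay below both other populations (log2 fold change -1.33 ± 0.23, adjusted p = 0.00229 against GFP cells). GFP&RFP cells were above RFP cells (log2 fold change 0.99 ± 0.23, adjusted p = 0.0457), a call that did not hold without the GFP library of litter 1 or 2 (adjusted p = 0.0567 and 0.0528), without the GFP&RFP library of litter 1 or 5 (adjusted p = 0.206 and 0.172), without the RFP library of litter 1, 2 or 5 (adjusted p = 0.151, 0.136 and 0.187) and under 6 other alternatives (adjusted p = 0.0512 to 0.0792), one of which is the fit with litter as a block (adjusted p = 0.0674). Pfkp, the platelet type subunit, was lower in RFP (571, 275 and 622) than in GFP cells (1171, 1507 and 2174), with a log2 fold change of -1.76 ± 0.44, adjusted p = 0.0159, a call that did not hold without the RFP library of litter 2 (adjusted p = 0.0652). Pfkm, the muscle type subunit, ranged from 1450 to 1949 over all 9 libraries with overlap between all populations (log2 fold change 0.11 ± 0.21, adjusted p = 0.75). Pfkfb3 and Pfkfb4 make fructose 2,6-bisphosphate, the activator of phosphofructokinase, and neither passed in RFP against GFP cells (log2 fold change -0.61 ± 0.32, adjusted p = 0.204 for Pfkfb3; -0.34 ± 0.35, adjusted p = 0.524 for Pfkfb4).

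Among the aldolases, which split fructose 1,6-bisphosphate, Aldoc had the largest log2 fold change of the members in RFP against GFP cells. Aldoc (aldolase C, chr11:78322968-78327781, plus strand) had 3179, 3860.1 and 5727 normalized counts in GFP cells, 701, 486 and 1291 in GFP&RFP cells and 152, 219.7 and 98.0 in RFP cells. The 3 populations did not overlap. Its log2 fold change was -4.79 ± 0.41, adjusted p = 2.26e-05 in RFP against GFP cells and -2.44 ± 0.41, adjusted p = 0.00486 in GFP&RFP against GFP cells, and both calls held under all 20 alternatives. GFP&RFP cells exceeded RFP cells (log2 fold change 2.35 ± 0.41, adjusted p = 0.0105), a call lost without the RFP library of litter 5 (adjusted p = 0.0503).

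Aldoa, the main aldolase of most tissues, differed less. Aldoa had 37614, 45557 and 88362 normalized counts in GFP cells, 31879, 26003 and 35206 in GFP&RFP cells and 17991, 29202 and 26964 in RFP cells. It was lower in RFP than in GFP cells (log2 fold change -1.14 ± 0.32, adjusted p = 0.0261), a call that did not hold without the RFP library of litter 1 or 5 (adjusted p = 0.117 and 0.062), with no filter on low genes (adjusted p = 0.0511), under quantile normalization (adjusted p = 0.07) and in a fit of the 2 populations alone (adjusted p = 0.0616). The second Aldoa identifier, a gene model just upstream on the same strand, had between 21 and 78 normalized counts and did not pass. Tpi1 interconverts the triose phosphates and Gapdh oxidizes one of them. Tpi1 had 50711, 63878 and 111756 normalized counts in GFP cells and 27833, 35806 and 30277 in RFP cells (log2 fold change -1.19 ± 0.27, adjusted p = 0.0102), with no overlap. Gapdh, often used as a reference gene, had 43706, 46454 and 97651 in GFP and 24504, 30396 and 25982 in RFP cells (log2 fold change -1.12 ± 0.29, adjusted p = 0.0202), also without overlap, and that call was lost without the RFP library of litter 1 or 5 (adjusted p = 0.0794 and 0.0731) and in a fit of the 2 populations alone (adjusted p = 0.051).

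All 4 genes of lower glycolysis were lower in RFP than in GFP cells. Pgk1, the first ATP-making step, had 23519.8, 25224 and 47808 normalized counts in GFP cells, 18538, 13391 and 18516 in GFP&RFP cells and 7519, 9211 and 9198 in RFP cells, with no overlap between the populations (log2 fold change -1.83 ± 0.28, adjusted p = 0.000979). Pgam1, the mutase that follows, ran 39604, 40838 and 62817, then 32312, 24762 and 28836, then 16707, 21015 and 17143 in the same order, again without overlap (log2 fold change -1.36 ± 0.23, adjusted p = 0.00181). Eno1 had 106788, 100939 and 194090.0 normalized counts in GFP cells, 86824, 55542 and 75883 in GFP&RFP cells and 28719.7, 39007 and 35464 in RFP cells. Eno1 encodes enolase 1, and its populations were likewise separate (log2 fold change -1.91 ± 0.28, adjusted p = 0.000922). Pkm, pyruvate kinase, ran 81974, 87083 and 96985 in GFP and 45968, 49146 and 49797 in RFP cells (log2 fold change -0.87 ± 0.21, adjusted p = 0.0147), a call that did not hold without the RFP library of litter 1, 2 or 5 (adjusted p = 0.0661, 0.0507 and 0.0538), with no filter on low genes (adjusted p = 0.0511) and under quantile normalization (adjusted p = 0.424). In the quantile fit the Pkm log2 fold change was -0.28.

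None of these 4 passed between GFP&RFP and GFP cells by limma. For Pgk1 the log2 fold change there was -0.88 ± 0.28, adjusted p = 0.0752, for Pgam1 -0.71 ± 0.23, adjusted p = 0.0784 and for Eno1 -0.84 ± 0.28, adjusted p = 0.095, and DESeq2 called all 3 (adjusted p = 0.0212, 0.0262 and 0.0337). The Eno1 log2 fold change was 1.07 ± 0.28, adjusted p = 0.0781 in GFP&RFP against RFP cells, and it passed under 5 of 20 alternatives: without the GFP library of litter 5 (adjusted p = 0.0101), under library-total scaling (0.027) and quantile normalization (0.0207), in a fit of the 2 populations alone (0.0203) and in DESeq2 (0.0127). Eno1b, a near copy of Eno1 picked out after its values were seen, stood at 3.45% to 3.79% of the Eno1 value in each library, so reads of the pair may be shared.

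Lactate dehydrogenase A, encoded by Ldha, favours the formation of lactate. Ldha had 142702, 161403 and 239893 normalized counts in GFP cells, 115671, 80603 and 112732 in GFP&RFP cells and 42432, 61740.2 and 56812 in RFP cells. Its populations did not overlap, and it was lower in RFP than in GFP cells (log2 fold change -1.74 ± 0.26, adjusted p = 0.000969). Between GFP&RFP and GFP cells (log2 fold change -0.80 ± 0.26, adjusted p = 0.0857) limma made no call where DESeq2 did (adjusted p = 0.028), and GFP&RFP against RFP cells (log2 fold change 0.94 ± 0.26, adjusted p = 0.0931) passed under the same 5 alternatives (adjusted p = 0.0181 to 0.0382, and 0.0193 without the GFP library of litter 5). Ldhb, the heart type subunit that favours pyruvate, had 10338, 9198 and 16710.0 normalized counts in GFP cells, 10336, 7444 and 6619 in GFP&RFP cells and 5686, 3927 and 3934 in RFP cells. It too was lower in RFP than in GFP cells (log2 fold change -1.39 ± 0.27, adjusted p = 0.00474).

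The lactate exporter MCT4, encoded by Slc16a3 (chr11:120948480-120960868, plus strand), had the smallest adjusted p of the members in RFP against GFP cells. Slc16a3 had 13342, 12535 and 9999 normalized counts in GFP cells, 5794, 4357 and 7940.5 in GFP&RFP cells and 1329, 1695 and 1309 in RFP cells. No library of a population overlapped another population. Its log2 fold change was -3.05 ± 0.25, adjusted p = 1.6e-05 in RFP against GFP cells and 2.03 ± 0.25, adjusted p = 0.00122 in GFP&RFP against RFP cells, and both calls held under all 20 alternatives. Against GFP cells, GFP&RFP cells were lower (log2 fold change -1.02 ± 0.25, adjusted p = 0.0279), a call that did not hold without the GFP library of litter 1 or 2 (adjusted p = 0.0657 and 0.0643), without the GFP&RFP library of litter 1 or 2 (adjusted p = 0.0851 and 0.117) and under 4 other alternatives (adjusted p = 0.0507 to 0.141).

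MCT1, encoded by Slc16a1, moves lactate in either direction. Slc16a1 had 8006, 6812 and 5442 normalized counts in GFP cells, 4454, 2959 and 6248 in GFP&RFP cells and 3323, 3056 and 4386 in RFP cells. It was lower in RFP than in GFP cells (log2 fold change -0.91 ± 0.28, adjusted p = 0.0421), without overlap, and the call was lost without the GFP library of litter 1 or 2 (adjusted p = 0.102 and 0.0805), without the GFP&RFP library of litter 1 (adjusted p = 0.0627), without the RFP library of litter 1, 2 or 5 (adjusted p = 0.13, 0.131 and 0.0564) and under 5 other alternatives (adjusted p = 0.0558 to 0.171). Pdk1, a HIF target that keeps pyruvate out of the mitochondrion by switching off pyruvate dehydrogenase, had 4705, 5280.2 and 3458 normalized counts in GFP cells, 4388, 3536 and 5193 in GFP&RFP cells and 2429, 1683 and 2419 in RFP cells. RFP cells were lowest and did not overlap the others. Pdk1 was lower in RFP than in GFP cells (log2 fold change -1.04 ± 0.24, adjusted p = 0.012), a call that did not hold without the RFP library of litter 2 (adjusted p = 0.0569) and under library-total scaling (adjusted p = 0.0851). GFP&RFP against RFP cells (log2 fold change 1.01 ± 0.24, adjusted p = 0.054) passed under 6 of 20 alternatives: without the GFP library of litter 5 (adjusted p = 0.0163), with a pseudocount of 5 (0.0453), with genes filtered at a mean of 50 (0.0492), under quantile normalization (0.0328), in a fit of the 2 populations alone (0.0282) and in DESeq2 (0.00449).

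**Figure D2:**
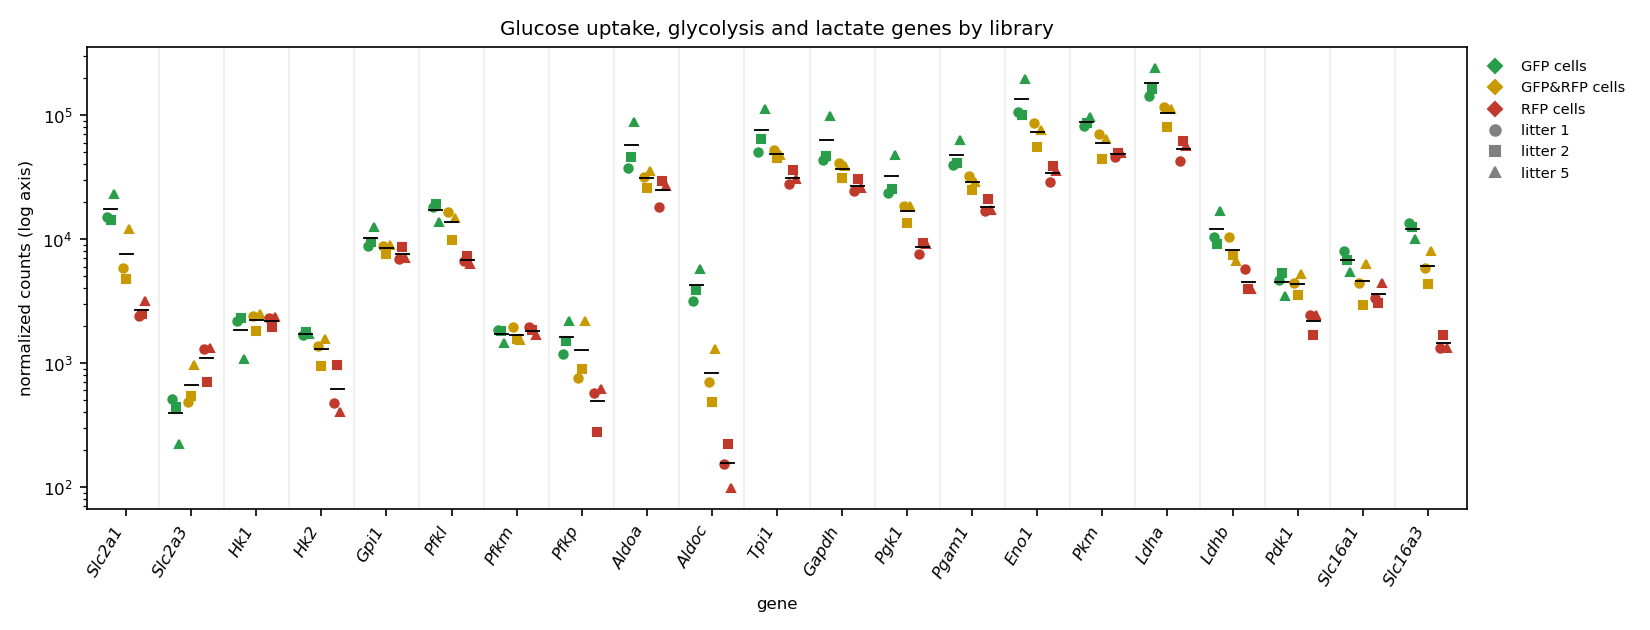
Normalized counts on a log axis for 21 glucose uptake, glycolysis and lactate genes, 1 point for each of the 9 libraries. Colour is the sorted population, shape is the litter and the bar is the mean of 3 libraries. RFP points (red) lie lowest for most genes, with the widest separation at Aldoc and Slc16a3. At Slc2a3 the RFP mean is highest, while RFP and GFP&RFP points overlap. Triangles are litter 5, and the green one stands above its group at Aldoa, Tpi1, Gapdh, Pgk1 and Eno1.

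The shares of related genes at a step also differed between the populations, while Slc2a1, Pfkl, Aldoa and Ldha had the largest share of their families in every library. To compare genes, normalized counts were divided by exon length, and each gene is given as a share of its family's sum per kilobase (mean ± SD, n = 3), with no test. Slc2a3 took 1.19% ± 0.627 of the 2 glucose transporters in GFP cells, 4.29% ± 0.817 in GFP&RFP cells and 16.6% ± 4.29 in RFP cells, with no overlap between the populations. Slc16a3 took 59.7% ± 1.37 of the 2 monocarboxylate transporters in GFP cells, 52.8% ± 1.97 in GFP&RFP cells and 25.5% ± 5.86 in RFP cells. Aldoc was the minor aldolase throughout, at 6.5% ± 0.897, 2.24% ± 0.813 and 0.579% ± 0.225 in the same order, which was again without overlap.

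Pfkl was the main phosphofructokinase subunit in every library, with 80% ± 2.1 in GFP cells, 76.9% ± 3.24 in GFP&RFP cells and 63.4% ± 2 in RFP cells. The Pfkm share was 16% ± 0.532, 19.5% ± 3.61 and 34.3% ± 1.5. Pfkm itself did not pass the test between RFP and GFP cells, while Pfkl and Pfkp were lower there. Hk2 took 58.2% ± 9.87 of Hk1 and Hk2 in GFP cells, 45.1% ± 2.2 in GFP&RFP cells and 28% ± 11.6 in RFP cells. The Ldhb share of the lactate dehydrogenases overlapped between the populations, at 12.3% ± 1.35, 14.4% ± 2.93 and 15.5% ± 5.65. Reads from the same library enter both genes of a share, and the level of each share depends on which transcript length is used.

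**Figure D3:**
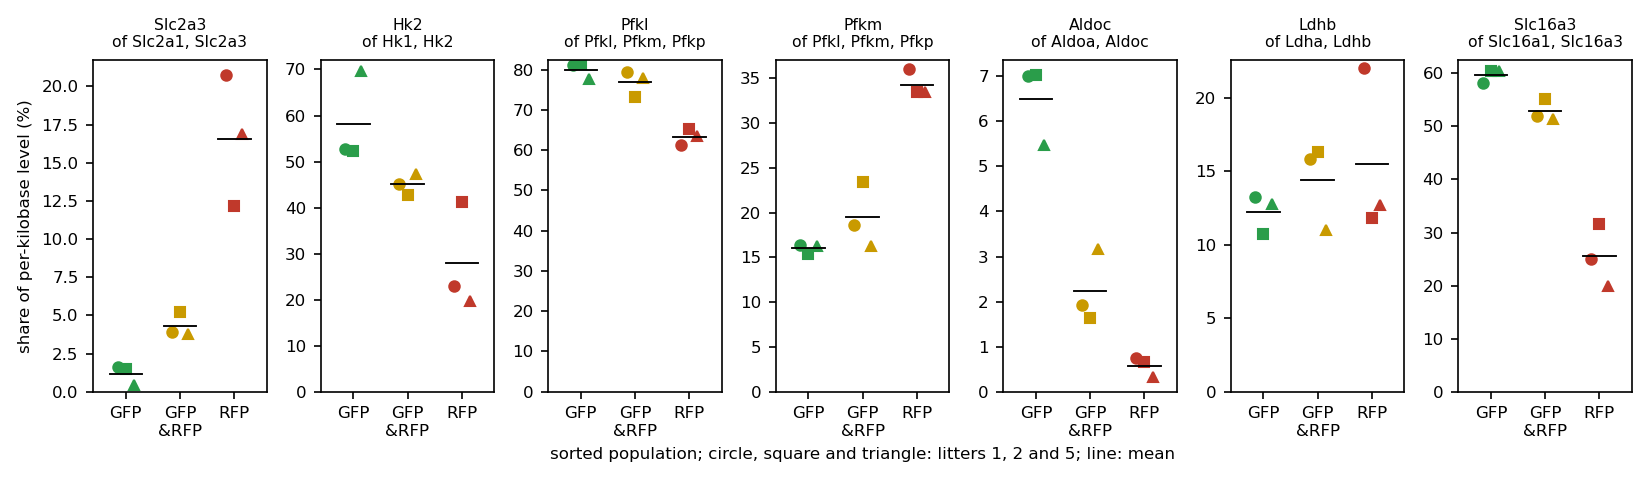
Share (%) of length-scaled values that 1 gene takes of its family, for 7 genes (panels) in GFP, GFP&RFP and RFP cells. Each point is 1 library, with circle, square and triangle for litters 1, 2 and 5, and the line is the mean. Each vertical axis starts at 0 and has its own scale. Slc2a3 and Pfkm shares are highest in RFP cells, Aldoc and Slc16a3 shares are lowest there, and Ldhb shares overlap.

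Fructose bisphosphatase runs the reverse of the phosphofructokinase step and is an enzyme of gluconeogenesis. Its genes Fbp1 and Fbp2 lie next to each other on chromosome 13 (chr13:62864753-62888282 and chr13:62836877-62858422, both on the minus strand), and both had their highest mean in GFP&RFP cells. Fbp1 had 57.9, 91.8 and 227 normalized counts in GFP cells, 352, 178 and 267 in GFP&RFP cells and 6.09, 10.2 and 4.2 in RFP cells. Fbp2 had 35.5, 78.4 and 44.8 normalized counts in GFP cells, 601, 231 and 329.7 in GFP&RFP cells and 23.6, 6.79 and 8.4 in RFP cells. For Fbp2 the GFP&RFP libraries lay above all others, while for Fbp1 they overlapped those of GFP cells, and RFP cells were lowest for both. In RFP cells these values stand for 8, 9 and 3 reads of Fbp1 and 31, 6 and 6 reads of Fbp2.

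Fbp2, the muscle type enzyme, was higher in GFP&RFP than in GFP cells (log2 fold change 2.81 ± 0.59, adjusted p = 0.0159) and than in RFP cells (log2 fold change 4.88 ± 0.59, adjusted p = 0.00125). The first of these calls was lost without the GFP&RFP library of litter 1 (adjusted p = 0.0734), and the second held under all 20 alternatives. Fbp2 was also lower in RFP than in GFP cells (log2 fold change -2.07 ± 0.59, adjusted p = 0.031), a call that did not hold without the GFP library of litter 2 (adjusted p = 0.084), without the RFP library of litter 2 or 5 (adjusted p = 0.0986 and 0.0993), with no filter on low genes (adjusted p = 0.0621), under library-total scaling (adjusted p = 0.0588) and in a fit of the 2 populations alone (adjusted p = 0.0791). Fbp1, the liver type enzyme, was higher in GFP&RFP than in RFP cells (log2 fold change 5.11 ± 0.59, adjusted p = 0.000861) and lower in RFP than in GFP cells (log2 fold change -3.85 ± 0.59, adjusted p = 0.00106), and both calls held under all 20 alternatives. Fbp1 did not pass between GFP&RFP and GFP cells (log2 fold change 1.25 ± 0.59, adjusted p = 0.215).

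Carbonic anhydrases IX and XII sit on the cell surface and turn carbon dioxide into bicarbonate and protons, which helps cells that make acid hold their internal pH. Car9, a classical HIF target (chr4:43506966-43513729, plus strand), had 327, 507 and 640.4 normalized counts in GFP cells, 652, 562 and 1055 in GFP&RFP cells and 48.8, 13.6 and 47.6 in RFP cells. RFP cells were far below both other populations, which overlapped. The Car9 log2 fold change was -3.86 ± 0.50, adjusted p = 0.000411 in RFP against GFP cells and 4.48 ± 0.50, adjusted p = 0.000768 in GFP&RFP against RFP cells, and both calls held under all 20 alternatives. It was 0.62 ± 0.50, adjusted p = 0.47 in GFP&RFP against GFP cells.

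Car12 followed another pattern. Car12 had 959, 1425 and 1045 normalized counts in GFP cells, 2494, 2049 and 2911 in GFP&RFP cells and 1841, 1108 and 1273 in RFP cells. GFP&RFP libraries lay above all others. Car12 was higher in GFP&RFP than in GFP cells (log2 fold change 1.13 ± 0.26, adjusted p = 0.0239), a call that did not hold without the GFP library of litter 1 (adjusted p = 0.0597), without the GFP&RFP library of litter 1 or 5 (adjusted p = 0.0768 and 0.0839) and in a fit of the 2 populations alone (adjusted p = 0.0539). It did not pass in GFP&RFP against RFP cells (log2 fold change 0.84 ± 0.26, adjusted p = 0.137) or in RFP against GFP cells (log2 fold change 0.29 ± 0.26, adjusted p = 0.463).

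A further contrast set GFP&RFP cells against the midpoint of the other 2 populations on the log2 scale. It called 3 members higher (Fbp1, Fbp2 and Car9), beside 1.01% of all genes (1.28% in either direction). None was called lower by limma (0, beside 0.265% of all genes), 0 at an unadjusted p under 0.05, and 0 in edgeR and DESeq2. The log2 difference from the midpoint was 3.18 ± 0.51, adjusted p = 0.0187 for Fbp1, 3.85 ± 0.51, adjusted p = 0.00621 for Fbp2 and 2.55 ± 0.44, adjusted p = 0.0216 for Car9. A midpoint of log2 values lies below that of the plain values, so a level between the other 2 populations can exceed it. By limma against GFP cells alone, Fbp2 was called higher, while Fbp1 and Car9 were not (adjusted p = 0.215 and 0.47). Fbp1, Fbp2 and Car9 were each above the midpoint in all 3 litters, though these are the same values that gave the calls. The 5 interzone markers (Gdf5, Prg4, Erg, Osr2 and Wnt9a) had their highest sums in GFP&RFP cells. These sums were 1724 to 2651 normalized counts in GFP cells, 12010 to 27668 in GFP&RFP cells and 7338 to 8009 in RFP cells. Of the 5 genes, 3 were called higher in GFP&RFP than in GFP cells, and 2 higher than in RFP cells. In RFP against GFP cells 3 were higher and 1 lower. Blood and immune markers reached their highest sum in GFP&RFP cells too, and skeletal muscle markers theirs in RFP cells (sums above); their part in this result was not tested. The Fbp1 call was lost without the GFP&RFP library of litter 1, 2 or 5 (adjusted p = 0.108, 0.0511 and 0.079). The Fbp2 call was lost without the GFP&RFP library of litter 1 (adjusted p = 0.057). The Car9 call was lost without the GFP&RFP library of litter 1, 2 or 5 (adjusted p = 0.101, 0.0729 and 0.117). Car12 (log2 fold change 0.98 ± 0.23, adjusted p = 0.0685) passed only under quantile normalization (adjusted p = 0.0445) and in DESeq2 (adjusted p = 0.00423). For Fbp2 and Car12, but for neither of the others, all GFP&RFP libraries exceeded all 6 others, as for 2.52% of all genes, and for 0 members they lay below them, as for 1.22%.

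None of the 3 HIF alpha subunit genes passed the test in any of these comparisons. Hif1a had 9210.2, 8238 and 4286 normalized counts in GFP cells, 9518, 7677 and 12460.3 in GFP&RFP cells and 7764, 6287 and 7397 in RFP cells. The populations overlapped, and the lowest of the 9 values was that of the GFP library of litter 5. Hif1a did not pass in RFP against GFP cells (log2 fold change 0.05 ± 0.29, adjusted p = 0.921), where the sign turned in edgeR and DESeq2, nor in GFP&RFP against GFP cells (log2 fold change 0.50 ± 0.29, adjusted p = 0.318). Epas1, which encodes HIF-2 alpha and is best known from blood vessels, ran from 32.7 to 156 normalized counts in all (log2 fold change 0.79 ± 0.59, adjusted p = 0.371). Hif3a, whose protein can hold back the other subunits, did not pass (log2 fold change 0.89 ± 0.34, adjusted p = 0.0921) except without the GFP library of litter 2 (log2 1.16, adjusted p = 0.0434).

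The prolyl hydroxylase genes Egln1 and Egln3, of which Egln3 is itself induced by HIF, overlapped between the populations. In RFP against GFP cells the log2 fold change was -0.17 ± 0.34, adjusted p = 0.76 for Egln1, with the sign turned under library-total scaling, and 0.29 ± 0.47, adjusted p = 0.692 for Egln3.

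The remaining 4 hypoxia response genes went different ways. Bnip3 had 15817, 21531 and 33729 normalized counts in GFP cells, 10809, 8399 and 12648 in GFP&RFP cells and 3158, 3419 and 3711 in RFP cells. Bnip3 (minus strand, chr7:138890836-138909519), a receptor for the removal of mitochondria, thus had 3 separate populations in the order of the glycolytic genes. Its log2 fold change was -2.72 ± 0.27, adjusted p = 7.47e-05 in RFP against GFP cells, a call that held under all 20 alternatives. It was -1.11 ± 0.27, adjusted p = 0.0304 in GFP&RFP against GFP cells, a call lost without the GFP library of litter 2 (adjusted p = 0.0544), without the GFP&RFP library of litter 1 or 2 (adjusted p = 0.0823 and 0.127), without the RFP library of litter 1, 2 or 5 (adjusted p = 0.0527, 0.0513 and 0.0502) and under 2 other alternatives (adjusted p = 0.0518 to 0.0958). In GFP&RFP against RFP cells it was 1.61 ± 0.27, adjusted p = 0.00921, lost without the GFP&RFP library of litter 1 or 5 (adjusted p = 0.05 and 0.0538).

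Ndrg1, a stress response gene that hypoxia induces in many cells, stood the other way. Ndrg1 had 518, 1010.0 and 706 normalized counts in GFP cells, 619, 895 and 1422 in GFP&RFP cells and 1163, 2107 and 2492 in RFP cells. Its RFP libraries all exceeded its GFP libraries, and Ndrg1 was higher in RFP cells (log2 fold change 1.35 ± 0.38, adjusted p = 0.0298). That call was lost without the GFP library of litter 1 or 5 (adjusted p = 0.0793 and 0.055) and without the RFP library of litter 2 or 5 (adjusted p = 0.0952 and 0.123). Adm encodes adrenomedullin, a peptide that widens blood vessels. Adm had 156, 116 and 560.3 normalized counts in GFP cells, 356, 299 and 784 in GFP&RFP cells and 708, 386 and 1339.8 in RFP cells. The GFP library of litter 5 overlapped the RFP values, and each litter by itself had more Adm in RFP than in GFP cells. Adm did not pass without the block (log2 fold change 1.72 ± 0.62, adjusted p = 0.0744), and passed with litter as a block (log2 1.72, adjusted p = 0.00388), under library-total scaling (adjusted p = 0.034) and without the GFP library of litter 5 (log2 2.40, adjusted p = 0.012).

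Ankrd37, a small HIF target gene, had 217, 187 and 1073 normalized counts in GFP cells, with litter 5 far above the others, and 166, 266 and 258 in RFP cells. It did not pass (log2 fold change -0.65 ± 0.56, adjusted p = 0.44), and it overlaps the more abundant Ufsp2 on the opposite strand. Other members overlap genes as well: Car9 overlaps an antisense gene at a mean of 65.3 normalized counts and Bnip3 one at 266. Pfkp, at a mean of 1125, overlaps Pitrm1 at 4287, and Pfkm, at 1736, overlaps Senp1 at 1813, both on the opposite strand. Gapdh overlaps Iffo1 at 661 and Tpi1 overlaps Spsb2 at 291.5. The sources used here do not say whether strand was used in counting, so such reads cannot be told apart.

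**Figure D4:**
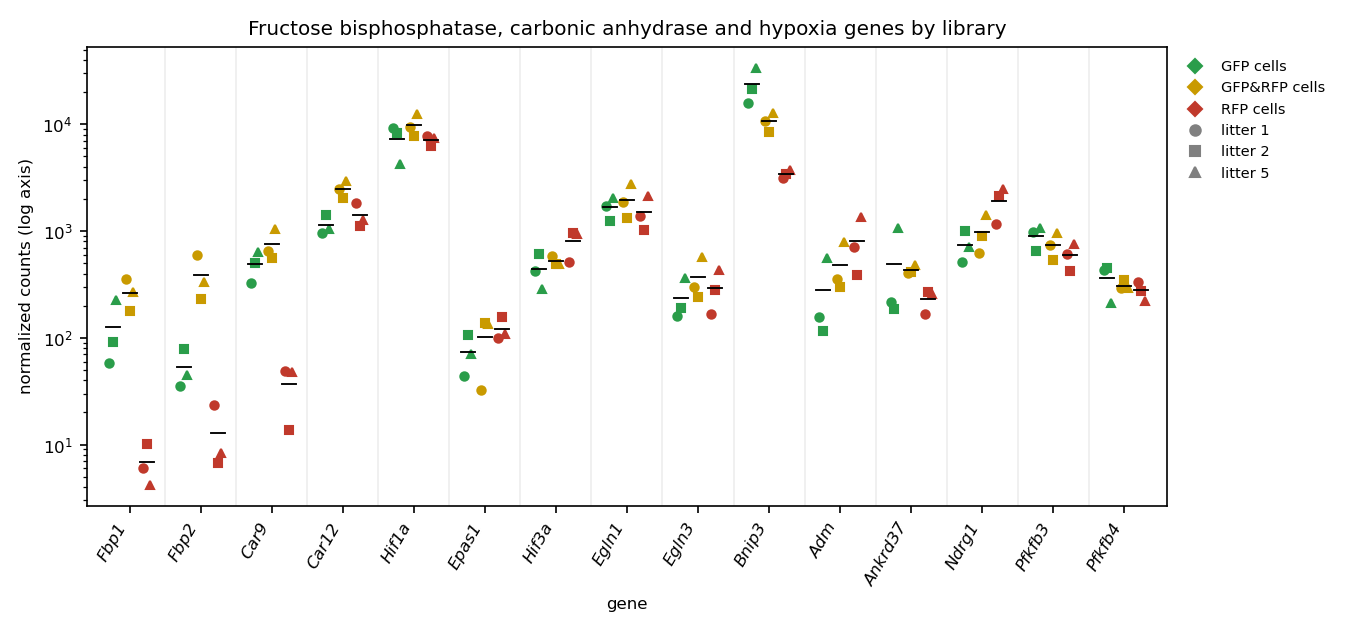
Normalized counts on a log axis for Fbp1, Fbp2, Car9, Car12, the HIF subunits, the prolyl hydroxylases, 4 hypoxia response genes and the Pfkfb genes, 1 point for each of the 9 libraries. Colour is the sorted population, shape is the litter and the bar is the mean of 3 libraries. GFP&RFP points (gold) lie highest at Fbp2 and Car12, RFP points (red) lie far below the rest at Fbp1, Car9 and Bnip3, and the 3 populations overlap at Hif1a.

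How counts are scaled moves all genes against each other in these libraries, since GFP libraries had larger normalized totals. When each library was instead scaled to its total, a choice made after the data were seen, the median log2 fold change of all genes became 0.33 in RFP against GFP cells and 0.33 in GFP&RFP against GFP cells. Among all called genes the share called higher became 72.5% in place of 58.2% in the first comparison and 79.8% in place of 63.6% in the second. The members then numbered 18 lower and 3 higher in RFP cells, and 2 lower and 2 higher in GFP&RFP cells. In GFP&RFP against GFP cells, quantile normalization and edgeR also gave 2 lower and 2 higher.

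The other genes of these pathways were read from 6 further lists. Of 127 symbols 126 were found and 115 tested. In RFP against GFP cells 22 were lower and 12 higher, beside 8.48% and 11.8% of all genes, with a median log2 fold change of -0.21. That is 19.1% lower and 10.4% higher. In GFP&RFP against GFP cells 4 were lower (3.48%) and 3 higher (2.61%), beside 3.02% and 5.27% of all genes. In GFP&RFP against RFP cells 3 were higher (2.61%) and 1 lower (0.87%), beside 1.8% and 1.05%. These last 2 comparisons gave shares near or below those of all genes. The citric acid cycle genes had 1 of 16 called in RFP against GFP cells (Idh3a, lower) and 15 not called.

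Among the other glycolysis and glucose transport genes, Slc2a10 and Eno3 were lower in RFP cells, and Hkdc1 and Hk3 were higher. Among 18 lactate, pyruvate and pyruvate dehydrogenase genes, 4 were lower (Bsg, the chaperone of the lactate transporters, with G6pc3, Pdk3 and Pck2) and 1 higher (Pdk2). Of 18 glycogen and pentose phosphate genes 4 were lower (Pygl, Ugp2, Tkt and Pgm1) and 3 higher (Gyg, Pgm2 and Pygb). The other carbonic anhydrases had 2 of 10 lower (Car8 and Car13) and 1 higher (Car14). Of 39 other HIF pathway and hypoxia genes 8 were lower (Fam162a, P4ha1, P4ha2, Plod1, Plod2, Tmem45a, Higd1a and Hilpda) and 5 higher (Angptl4, Arnt2, Lox, Mxi1 and Cited2).

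Pygl, glycogen phosphorylase, had 4354 ± 957 normalized counts in GFP cells (mean ± SD, n = 3 here and below), 682 ± 463 in GFP&RFP cells and 370.4 ± 78.3 in RFP cells. It was lower in GFP&RFP (log2 fold change -2.85 ± 0.40, adjusted p = 0.00215) and in RFP (log2 fold change -3.55 ± 0.40, adjusted p = 0.000153) than in GFP cells. Pgm1, which links glycogen to glucose 6-phosphate, was 8818 ± 1349, 5085 ± 274 and 3140.4 ± 108 in the same order, and was lower in GFP&RFP than in GFP cells (log2 fold change -0.78 ± 0.18, adjusted p = 0.0242). That Pgm1 call was lost without the GFP library of litter 2 (adjusted p = 0.0514), without the GFP&RFP library of litter 1, 2 or 5 (adjusted p = 0.0697, 0.1 and 0.061), without the RFP library of litter 1 (adjusted p = 0.051) and under 3 other alternatives (adjusted p = 0.0882 to 0.0948).

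A pair of collagen-modifying enzymes of the hypoxia list had the order of populations of most glycolytic genes. P4ha2, a collagen prolyl hydroxylase, had 24075 ± 4080.5 normalized counts in GFP cells, 10960.0 ± 3282 in GFP&RFP cells and 4528 ± 783 in RFP cells. P4ha2 fell in RFP against GFP cells (log2 fold change -2.41 ± 0.25, adjusted p = 9.68e-05). GFP&RFP cells lay below GFP cells (log2 fold change -1.16 ± 0.25, adjusted p = 0.0169), a call that did not hold without the GFP&RFP library of litter 1 or 2 (adjusted p = 0.065 and 0.0816), under quantile normalization (adjusted p = 0.0505) and in a fit of the 2 populations alone (adjusted p = 0.0571). They lay above RFP cells (log2 fold change 1.25 ± 0.25, adjusted p = 0.0229), a call that did not hold without the GFP&RFP library of litter 1 or 5 (adjusted p = 0.0787 and 0.0917) and without the RFP library of litter 1, 2 or 5 (adjusted p = 0.104, 0.068 and 0.077). Plod2, a collagen lysyl hydroxylase, was 16733 ± 1346, 9512 ± 3892 and 3081 ± 941 in the same order. Plod2 fell in RFP against GFP cells (log2 fold change -2.48 ± 0.29, adjusted p = 0.0002) and was higher in GFP&RFP than in RFP cells (log2 fold change 1.59 ± 0.29, adjusted p = 0.0142), the latter lost without the RFP library of litter 1 or 2 (adjusted p = 0.0678 and 0.0788).

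Lox, the collagen crosslinking lysyl oxidase, went the other way, with 3865 ± 2992 normalized counts in GFP cells and 21311 ± 3194 in RFP cells (log2 fold change 2.87 ± 0.58, adjusted p = 0.0052). Angptl4, an inhibitor of lipoprotein lipase, was also higher in RFP than in GFP cells (log2 fold change 1.64 ± 0.24, adjusted p = 0.000781) and lower in GFP&RFP than in RFP cells (log2 fold change -1.22 ± 0.24, adjusted p = 0.0205), the latter lost without the GFP&RFP library of litter 1 or 5 (adjusted p = 0.104 and 0.0915) and without the RFP library of litter 1, 2 or 5 (adjusted p = 0.0736, 0.1 and 0.0802). Cited2, which competes with HIF-1 alpha for its coactivators, was higher in GFP&RFP than in GFP cells (log2 fold change 1.40 ± 0.31, adjusted p = 0.0195), a call that did not hold without the GFP library of litter 1 or 2 (adjusted p = 0.0505 and 0.0521), without the GFP&RFP library of litter 1 or 5 (adjusted p = 0.0616 and 0.0684) and in a fit of the 2 populations alone (adjusted p = 0.0549). Hkdc1, a hexokinase-like gene, was higher in RFP than in GFP cells (log2 fold change 5.27 ± 1.23, adjusted p = 0.0113), with 12 reads over the GFP and 435 over the RFP libraries.

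The carbonic anhydrases of the further lists differed among themselves. Car8, a relative without enzyme activity, had 1198 ± 210.4 normalized counts in GFP cells, 340.2 ± 63.9 in GFP&RFP cells and 68.3 ± 30.6 in RFP cells. It was lower in RFP than in GFP cells (log2 fold change -4.18 ± 0.35, adjusted p = 2.14e-05), higher in GFP&RFP than in RFP cells (log2 fold change 2.37 ± 0.35, adjusted p = 0.00432), and lower in GFP&RFP than in GFP cells (log2 fold change -1.82 ± 0.35, adjusted p = 0.0105), the last lost without the GFP&RFP library of litter 2 (adjusted p = 0.0517). Car14, a membrane carbonic anhydrase, was 185 ± 111, 1183 ± 497 and 846 ± 281 in the same order. It was higher in GFP&RFP (log2 fold change 2.79 ± 0.48, adjusted p = 0.00636) and RFP cells (log2 fold change 2.34 ± 0.48, adjusted p = 0.00611) than in GFP cells. Car10, another relative without activity, had 41 reads over the GFP libraries and 808 over the GFP&RFP libraries (log2 fold change 4.60 ± 1.10, adjusted p = 0.0266), a call that did not hold without the GFP&RFP library of litter 2 or 5 (adjusted p = 0.11 and 0.0753) and in a fit of the 2 populations alone (adjusted p = 0.0667).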

How the data were processed

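Polyadenylated RNA of sorted knee cells was sequenced in bulk; the labels' protocols name the Nextera XT kit. DESeq2, Salmon, STAR, FastQC and the build mm10 are listed, with no versions, per the submitters' processing notes. The deposited values are a signal, the authors' normalized counts for each gene. Dividing them by what 1 read is worth in a library gave whole reads for 100% of values (tolerance 0.001 read), 25199258 to 47079305 per library. Symbols came from GENCODE M21 (GRCm38), which matched 54495 identifiers and left 37 unmatched.

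Log2(normalized count + 1), a scale that understates fold changes of low genes, was tested two-sided with limma-trend (limma 3.58.1, R 4.3.3). The model had population alone, over all 9 libraries and the 17764 genes with a mean of at least 10. Calls are Benjamini-Hochberg adjusted p values under 0.05 over these genes. A log2 fold change is printed with its standard error. On recovered reads, edgeR 4.0.16 called 1236 genes in GFP&RFP against GFP, 3191 in RFP against GFP, 411 in GFP&RFP against RFP cells and 273 against the midpoint. DESeq2 1.42.0 was also run. No pair of replicate libraries agreed within sampling noise (the smallest chi-square per degree of freedom was 42.5), so each was 1 sample.

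Litter numbers come from the labels and so pair the libraries. Deviations from the population means correlated with a median of 0.103 within a litter (9 pairs, -0.0353 to 0.149) and -0.0409 between litters (18 pairs, -0.146 to 0.0915). The model with litter as a block is given where it changes a call.

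The 36 members, the further pathway lists and the marker lists were chosen with earlier results of these data known. All members are named. The result for 1 gene of the further lists is not reported here. Of the other pathway genes, the text gives values for up to 4 per direction and comparison with the smallest adjusted p and the same sign in 3 litters. Further genes called in RFP against GFP cells are listed by name alone beside the count of their list, chosen after their values were seen. Alternatives were other pseudocounts (0.5 and 5), no filter or a filter at a mean of 50, TMM, library-total and quantile scaling, a litter block, a fit of 2 populations, edgeR, DESeq2, and leaving out each library. Library-total scaling was chosen after seeing the data. Promoter sequences are RefSeq's, on GRCm38.p6.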

Additional observations from a re-analysis of the deposited data

How the results depend on the processing

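Between RFP and GFP cells 23 members were called, and 19 to 24 under the alternatives that kept all libraries. In GFP&RFP against GFP cells 6 became 2 in a fit of those 2 populations and 10 in DESeq2. In GFP&RFP against RFP cells 8 became 14 in a fit of those 2 populations and 14 in DESeq2. Leaving out 1 library at a time gave 1 to 6, 16 to 23, 5 to 15 and 0 to 3 members in GFP&RFP against GFP, RFP against GFP, GFP&RFP against RFP cells and against the midpoint. With litter as a replicate block the pairing gave 6, 24, 7 and 3, and beside Adm (gained) and Pfkl (lost in GFP&RFP against RFP cells) it changed no other call of a member. The cause of these shifts was not tested. Over all genes the counts were 1472, 3601, 506 and 227, and ran from 637 to 2780, 2190 to 4696, 217 to 1152 and 45 to 768. In RFP against GFP cells 6 members without a call changed sign: Hif1a in edgeR (log2 -0.0015) and DESeq2 (-0.023), Egln1 under library-total scaling (0.12), and with a library left out Hk1 (-0.030 to 0.52), Pfkm (-0.0058 to 0.17), Hif1a (-0.29 to 0.26), Egln1 (-0.45 to 0.081), Egln3 (-0.036 to 0.65) and Ankrd37 (-1.10 to 0.16). With the longest transcript as length the shares became 43.5% and 30.8% for Hk2, 4.16% and 1.41% for Aldoc, 8.45% and 10% for Ldhb, and 64.5% and 57.9% for Slc16a3 in GFP and GFP&RFP cells, and 85.3%, 83.0% and 72.3% for Pfkl and 11.1%, 13.6% and 25.4% for Pfkm in GFP, GFP&RFP and RFP cells. With 3 libraries a population, precision was limited by the number of libraries.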
